A study of Mus musculus with 8 samples.

Results

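Expression in mouse embryonic fibroblasts lacking Stat5a and Stat5b was compared with expression in control fibroblasts while both were under growth hormone (GH). The comparison uses 4 of the 8 arrays of the study: 2 of null cells with GH and 2 of control cells with GH. They were chosen by the array titles, which number them 2 and 3 and mark them as biological replicates ("Bio-2 replication" and "Bio-3 replication"). Both genotypes are labelled C57BL/6, at passage 13. They were starved for 5 h and then received GH at 1 ug/ml for 2 h. The genotype labels are "Stat5a/b-null" and "wild type", and the design text calls the latter control cells. The other 4 arrays hold the same genotypes handled alike but without GH, again 2 each, and served to estimate the spread and to test whether a genotype difference depended on GH. Beyond the mark in the titles, the labels do not say how many embryos or separate cultures the cells came from. All p-values therefore reflect only how much these arrays vary, which may be technical. Genotype can therefore not be told apart from whatever else differs between the null and the control culture.

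GH binds its receptor, GHR, on the cell surface and thereby activates the receptor-bound kinase JAK2. JAK2 phosphorylates the paired transcription factors STAT5A and STAT5B, which enter the nucleus and bind short palindromic sites. Among the best known STAT5 target genes are the feedback inhibitors of the CIS and SOCS family, which act back on the receptor and on JAK2, and, in liver, the growth factor gene Igf1. Bcl6, a transcriptional repressor, is a gene that GH lowers in liver. The series title concerns proliferation and the cell cycle inhibitor genes Cdkn1a, which encodes p21, and Cdkn2b, which encodes p15.

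The classical STAT5 site has the letters TTCNNNGAA, which read the same on both strands. It was searched for in the promoter windows of RefSeq on the mouse assembly GRCm38.p6, each 300 bases long, with 250 bases before and 50 bases after a gene's start. Of 32851 such windows 8.3% held the letters. The windows of 3 genes that appear in the results, 2 feedback inhibitors and a repressor, are shown because they hold 1 or more matches, in capitals.
Cish, chr9:107296409-107296678, + strand: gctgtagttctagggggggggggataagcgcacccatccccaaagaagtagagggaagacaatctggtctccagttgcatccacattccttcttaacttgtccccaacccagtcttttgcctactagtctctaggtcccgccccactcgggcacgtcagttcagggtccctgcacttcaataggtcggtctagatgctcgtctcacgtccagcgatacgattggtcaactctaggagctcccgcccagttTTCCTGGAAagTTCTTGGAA
Socs3, chr11:117969367-117969616, - strand: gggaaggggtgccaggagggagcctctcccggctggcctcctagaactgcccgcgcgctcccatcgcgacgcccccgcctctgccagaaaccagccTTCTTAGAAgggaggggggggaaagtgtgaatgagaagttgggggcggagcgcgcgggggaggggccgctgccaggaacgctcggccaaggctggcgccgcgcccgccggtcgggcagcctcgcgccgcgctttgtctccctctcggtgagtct
Bcl6, chr16:23981284-23981533, - strand: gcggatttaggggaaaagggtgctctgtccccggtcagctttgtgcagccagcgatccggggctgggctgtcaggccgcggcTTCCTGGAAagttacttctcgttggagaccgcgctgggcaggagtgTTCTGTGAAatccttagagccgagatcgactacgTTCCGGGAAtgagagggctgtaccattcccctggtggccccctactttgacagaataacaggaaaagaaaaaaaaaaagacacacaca
In Cish, 2 matches lie at bases 251 to 259 and 262 to 270 of the window, just inside the transcribed part. Socs3 has 1 match at bases 97 to 105. The Bcl6 window shown, 1 of 2 for that gene, has 3 matches at bases 83 to 91, 129 to 137 and 163 to 171, and its other window has 1. No match was found in the windows of Igf1, Cdkn2b, Ghr or Cdkn1a, and that says only that these letters are not in these windows. Over the tested genes with a window, the letters stood in 9.09% of 3181 genes that were higher in null cells, 7.51% of 3421 that were lower and 8.82% of 7766 that were not called. A match is a description of the sequence and was not set against binding data.

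Values are log2 intensities, and all differences below are null minus control on that scale with their standard error (SE), unless GH-free cells are named. A gene was called higher or lower at an adjusted p below 0.05. A group mean under 6.097, which is the first quartile over genes and arrays, is called dim. It is not set apart from background here, so for such genes the array values are given without a fold. Array medians lay between 6.89 and 6.96 over all 8 arrays. Arrays of 1 group correlated at 0.9968 to 0.998, and the null and control arrays with GH at 0.9625 to 0.9642. The median difference between the 2 arrays of a group was 0.085 for control and 0.10 for null cells. The median genotype difference was 0.227 in size over all genes and 0.61 over called genes. For 1 of the arrays of null cells without GH the title and the source label carry different numbers, and the title was followed.

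A large part of the transcriptome differed between the genotypes under GH. Of 18193 genes, 4042 were higher in null cells (22.2%) and 4205 were lower (23.1%), so 45.3% were called. Which side was larger depended on scaling, with 4440 higher and 3843 lower once arrays were centred on their median. Most differences were small: 880 of the called genes were at least 2-fold higher and 1088 at least 2-fold lower, and 25 and 58 were at least 16-fold apart. Among genes dim in 1 genotype only, 388 were called lower with the null mean dim and 181 higher with the control mean dim. Called shares rose with signal: with genes in 4 equal bins of mean signal, 5.17% were higher and 9.25% lower in the dimmest bin, against 32.6% and 30.6% in the brightest. Against a minimum of 1.5-fold (limma's treat), 1102 genes were higher and 1321 lower. Any group of genes has to be read against these shares. Of the reference genes, Actb, a cytoskeletal actin, lay at 15.02 and 14.99 on the control arrays and 14.94 and 14.89 on the null arrays and was not called (-0.09 ± 0.08). Tbp, a general transcription factor, was higher in null cells (0.92 ± 0.11), and Hprt, a purine salvage enzyme, was 0.28 ± 0.09 lower, a call lost without either null array or without control array 2.

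The targeted transcripts were lower in null cells. Stat5a read 7.47 and 7.77 on the control arrays with GH and 5.57 and 5.84, dim, on the null arrays (adjusted p = 2.84e-06). Stat5b read 7.96 and 7.89 in control cells and 6.94 and 7.05 in null cells, a difference of -0.93 ± 0.09, with the probe set that stands for the gene. The other Stat5b probe set read 8.43 and 8.21 in control cells and 5.42 and 4.96, dim, in null cells. The groups did not overlap for either gene, and both probe sets of each gene were called lower. With so few arrays per group, a lack of overlap adds little to a call. The share of all genes without overlap is not given here. The sources used here do not say which part of either gene was removed, so the Stat5b signal of the first probe set in null cells says nothing about the protein.

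**Figure D1:**
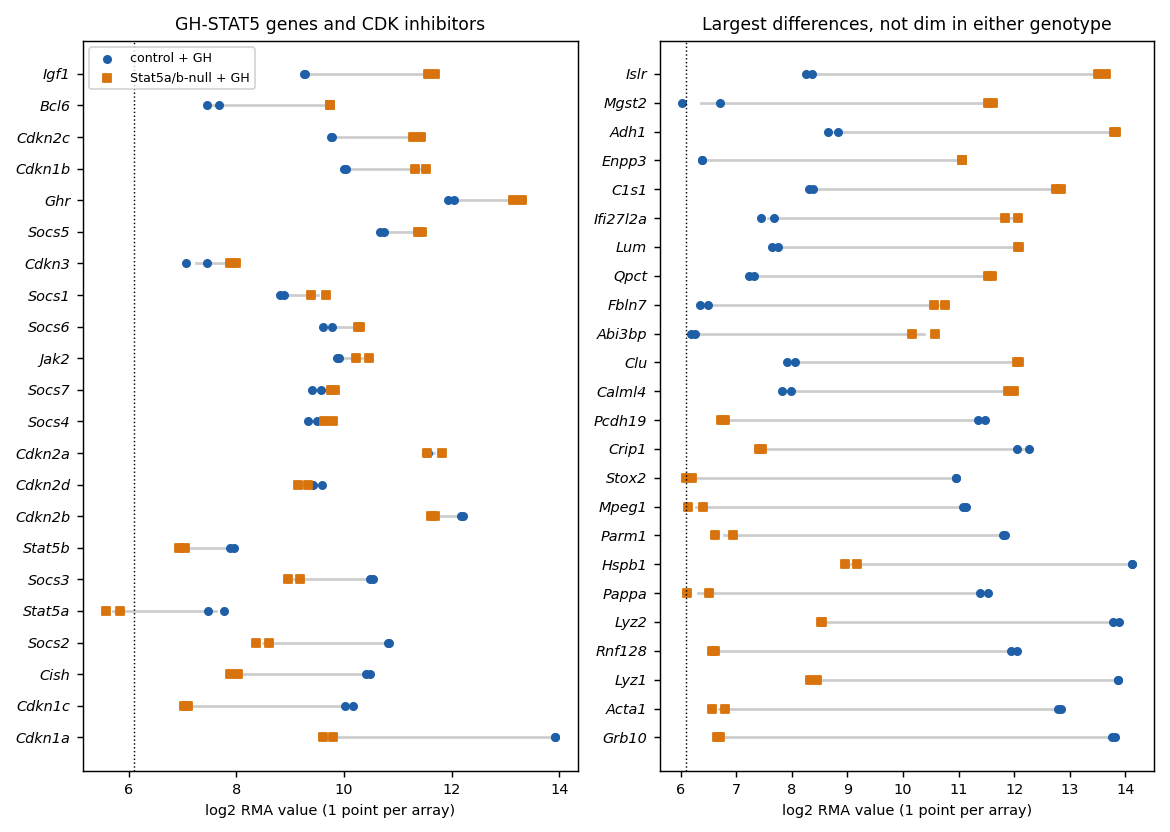
Log2 RMA values (x axis) of each gene (rows) on the 2 control arrays with GH (circles) and the 2 null arrays with GH (squares), with a grey line between the group means. The left panel holds GH-STAT5 genes, CIS and SOCS genes and CDK inhibitors, the right panel the 12 largest differences each way among genes dim in neither genotype, and the dotted line marks the first quartile, 6.097. Cdkn1a lies at 13.93 and 13.92 in control cells and at 9.61 and 9.80 in null cells, while the squares and circles of Cdkn2a lie together.

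Upstream of STAT5, the receptor gene was higher in null cells. Ghr read 12.05 and 11.94 on control arrays and 13.31 and 13.14 on null arrays, 2.35-fold higher (1.23 ± 0.11, adjusted p = 1.41e-06), in all 3 of its probe sets. Jak2 was higher by 0.45 ± 0.11 (adjusted p = 0.00479), with 9.92 and 9.87 in control against 10.46 and 10.22 in null cells. Without GH the order was turned over, and Jak2 was lower in null cells (-0.30 ± 0.11, adjusted p = 0.0399). Without null array 2 the Jak2 difference with GH was 0.33 and missed the threshold (adjusted p = 0.0696). Among 30 measured GH receptor and JAK-STAT genes 13 were higher, 9 lower and 8 not called, with a median difference of 0.12 against -0.02 over all genes. Ptpn2, a phosphatase of JAK and STAT proteins, was higher (1.34 ± 0.09). Sirpa, a membrane receptor that recruits SHP phosphatases, was lower (-1.94 ± 0.09). Ptprc, the leukocyte phosphatase CD45, was lower too, and dim in null cells.

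Of the CIS and SOCS feedback inhibitors, Cish, Socs2 and Socs3 were lower in null cells under GH. Cish read 10.48 and 10.41 on control arrays and 7.88 and 8.04 on null arrays, 5.60-fold lower (-2.49 ± 0.11, adjusted p = 1.86e-09). Socs2 read 10.82 and 10.84 against 8.37 and 8.60, 5.09-fold lower (-2.35 ± 0.10) in all 6 probe sets. Socs3 read 10.48 and 10.54 against 8.96 and 9.18, 2.70-fold lower (-1.43 ± 0.11). None of these groups overlapped, which adds little to the calls with so few arrays per group. Over all 8 members of the family, 4 were higher, 3 lower and 1 not called. The higher members differed less: Socs5 by 0.70 ± 0.09, Socs1 by 0.67 ± 0.11, Socs6 by 0.58 ± 0.09 and Socs7 by 0.30 ± 0.11. The Socs6 call was lost when the probe sets of the gene were averaged (adjusted p = 0.0535), and Socs7 missed the threshold with each of its 4 probe sets tested on its own. Socs4, at 9.51 and 9.34 in control and 9.79 and 9.63 in null cells, was not called (0.29 ± 0.12, adjusted p = 0.0735), although it passed under several other settings, including a fit of the 4 arrays with GH alone (adjusted p = 0.0312).

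For these 3 genes the genotype difference itself differed between the GH states. Without GH, Cish read 8.63 and 8.36 in control and 7.91 and 7.88 in null cells, so the genotype difference grew with GH by 1.88 ± 0.15 in size (interaction -1.88, adjusted p = 1.74e-05). The 4 null arrays lay between 7.88 and 8.04 whether or not GH was given, while control cells with GH stood above all control arrays without GH. Socs2 gave an interaction of -1.17 ± 0.14 (adjusted p = 0.00042). For Socs3 the order of the genotypes turned over: null cells were above control cells without GH (0.78) and below them with GH, an interaction of -2.21 ± 0.15.

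Igf1 and Bcl6 were higher in null cells. Igf1 read 9.25 and 9.28 on control and 11.69 and 11.57 on null arrays, 5.15-fold higher in null cells (2.36 ± 0.09, adjusted p = 7.92e-10), against 2.32 without GH (interaction 0.04 ± 0.13, adjusted p = 0.915). Bcl6 read 7.68 and 7.45 against 9.74 on both null arrays, 4.52-fold higher (2.18 ± 0.11). The Bcl6 difference was larger with GH than without (1.17; interaction 1.01 ± 0.15). Of 28 measured STAT5 and GH target genes, 10 were higher, 10 lower and 8 not called (median -0.14). Their interaction was called negative for 5, namely Cish, Socs2, Socs3, Cdkn1b and the kinase gene Pim3, named after its values were seen. It was called positive for 3. Over all genes the shares were 2.33% negative and 2.83% positive. The 23 measured IGF ligands, receptors and binding proteins also split, with 9 higher and 8 lower (median 0.03). Pappa, a protease of IGF-binding proteins, was 35.5-fold lower, from 11.38 and 11.54 to 6.51 and 6.11. Igfbp2 was lower as well, from 11.42 and 11.34 to dim readings of 5.41 and 5.61.

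CDK inhibitors, which halt the cell cycle by blocking cyclin-dependent kinases, moved in both directions. Cdkn1a read 13.93 and 13.92 on control arrays and 9.61 and 9.80 on null arrays, 18.6-fold lower in null cells (-4.22 ± 0.10, adjusted p = 8.47e-12). Its difference without GH was -4.24, and the interaction was 0.02 ± 0.14 (adjusted p = 0.961). Cdkn2b read 12.22 and 12.17 against 11.62 and 11.70, 1.45-fold lower (-0.53 ± 0.09, adjusted p = 0.000327), a difference under the 1.5-fold minimum. The groups did not overlap for either, which adds little to the calls with so few arrays per group. Without GH the Cdkn2b difference was -1.03; the interaction, 0.49 ± 0.13, had an adjusted p of 0.0482 and lost its call without any single one of the 8 arrays (adjusted p from 0.0519 to 0.17). Cdkn1c, which encodes p57, was 8.19-fold lower, from 10.18 and 10.02 to 7.10 and 7.03. Against these, Cdkn2c (p18) was 3.02-fold higher and Cdkn1b (p27) 2.66-fold higher, the latter in 1 of its 2 probe sets. Cdkn2a was not called (0.14 ± 0.11), and Cdkn2d was slightly lower (-0.28 ± 0.10, adjusted p = 0.046). The Cdkn2d call was lost without either control array with GH. Several other settings lost it too, such as arrays centred on their median (adjusted p = 0.0778). Without GH, Cdkn2d was higher in null cells (0.29 ± 0.10, adjusted p = 0.0365). In all, 3 of the 8 were higher and 4 lower with GH. Cdkn3, a phosphatase named with them, was higher among these (0.69 ± 0.13).

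Genes activated by the tumour suppressor p53, of which Cdkn1a is one, were mostly lower in null cells. Of 46 measured targets 32 were lower, 7 higher and 7 not called, with a median of -1.07 against -0.02 over all genes. Mdm2, the ubiquitin ligase that degrades p53, read 12.99 and 13.05 on control arrays and 10.92 and 10.95 on null arrays (-2.08 ± 0.09). Pmaip1, a pro-apoptotic BH3 protein gene, fell from 10.84 and 10.71 to dim readings of 5.93 and 5.60, and Perp, a desmosomal p53 target, from 9.59 and 9.40 to 4.79 and 4.84. Exceptions named after their values were seen were Pltp, a phospholipid transfer protein (1.17), and Ddb2, a DNA damage binding protein (1.08), which were higher. Of the 16 measured BCL2 family genes 6 were lower, 1 higher and 9 not called. They included the BH3 gene Bbc3 (-1.73 ± 0.10) and Bok (-1.42 ± 0.09).

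Genes of cell division were shifted the other way, by smaller amounts. Of 68 measured mitosis and spindle genes 44 were higher in null cells, 5 lower and 19 not called (median 0.49). Cenpa, the centromeric histone, read 10.18 and 10.15 in control against 11.52 and 11.75 in null cells (1.47 ± 0.12), and Nusap1, a spindle protein, was higher by 1.28 ± 0.09. For both genes at least 1 other probe set was not called. The largest fall among them was in Gtse1 (-1.56 ± 0.11), which is itself on the p53 target list. Mki67, a proliferation marker named after its values were seen, read 10.12 and 9.99 in control and 10.17 and 10.01 in null cells and was not called (0.04). Among 47 DNA replication genes 19 were higher, 8 lower and 20 not called (median 0.20), with Orc6, of the origin recognition complex, at 1.33 ± 0.10, Dut, a dUTPase, at 1.34 ± 0.10 and Gins3, of the replicative helicase, at 1.38 ± 0.11. The 26 measured G1 cyclins, CDKs and RB family genes split into 6 higher, 8 lower and 12 not called. In that set Ccnd2, a D-type cyclin, was lower (-1.66 ± 0.10) in all 7 probe sets, and Skp2, which targets p27 for degradation, was higher (1.16 ± 0.08) in all 6.

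The largest differences were not in the GH pathway. Lowest of the genes dim in neither genotype, by the probe set that stands for each, was Grb10, an imprinted adaptor that restrains insulin and IGF1 receptor signalling: 13.75 and 13.82 on control arrays against 6.70 and 6.65 on null arrays, 138-fold lower (-7.11 ± 0.09, adjusted p = 3.84e-13), in all 3 probe sets. Acta1, an alpha-actin of skeletal muscle, was 70.4-fold lower, from 12.79 and 12.85 to 6.80 and 6.57. Lyz1 and Lyz2, near-identical lysozyme genes whose probe sets may share signal, were 44.7-fold and 39.3-fold lower. Another Lyz1 probe set was dim in both genotypes, at 5.35 and 5.57 in control and 4.86 and 4.98 in null cells. The other 8 of the 12 ranged from the ubiquitin ligase gene Rnf128 (-5.41 ± 0.09) through the small heat shock protein gene Hspb1 (-5.05 ± 0.11) and Mpeg1, which encodes macrophage perforin-2 (-4.83 ± 0.10), to the protocadherin gene Pcdh19 (-4.66 ± 0.09). Parm1, Stox2, Crip1 and Pappa lay between these.

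On the higher side, Islr, a secreted leucine-rich repeat protein of stromal cells, read 8.37 and 8.25 on control arrays and 13.51 and 13.65 on null arrays, 38.7-fold higher (5.27 ± 0.09). Mgst2, a microsomal glutathione transferase, was 36.8-fold higher, although its 2 control arrays lay apart at 6.03 and 6.71, and Adh1, an alcohol dehydrogenase that also oxidises retinol, was 33.7-fold higher. The next were the ectoenzyme Enpp3 (4.67 ± 0.10), the complement protease C1s1 (4.45 ± 0.09), the interferon-inducible Ifi27l2a (4.38 ± 0.12), the matrix proteoglycan lumican, Lum (4.37 ± 0.09), and the cyclotransferase Qpct (4.28 ± 0.09). Fbln7, Abi3bp, Clu and Calml4 completed the 12, at 4.05 to 4.23. Each of these 24 differences was of the same direction without GH.

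Several genes were dim in 1 genotype and bright in the other. Among those bright in null cells were Scara5, a ferritin receptor, at 11.27 and 11.18 against 5.47 and 5.39, and Sfrp2, a secreted WNT antagonist, at 11.13 and 11.27 against 6.15 and 6.05. Agtr2, the type 2 angiotensin receptor, read 11.23 and 10.95 against 5.17 and 4.99. The oestrogen receptor gene Esr1 read 10.71 and 10.55 in null against 5.98 and 5.41 in control cells. The progesterone receptor gene Pgr (10.40 and 10.30 against 5.38 and 5.53) and Greb1, an oestrogen-responsive gene (10.64 and 10.78 against 5.43 and 5.60), were bright in null cells as well. The list of steroid and nuclear receptor genes counts Greb1 beside the receptors, and 3 of its 23 measured members were dim in control and bright in null cells. Of these 23, 9 were higher and 4 lower (median -0.03). Angptl1, Cilp, Ces2g and Osr2 were the rest of the 10 brightest. Bright in control and dim in null cells were Efemp1, a fibulin, at 12.72 and 12.27 against 4.83 and 4.96, and Cthrc1, a secreted collagen triple helix protein, at 12.27 and 12.23 against 5.86 and 5.67. The other genes of that set were the complement C1q chains C1qa, C1qb and C1qc, the chemokine Ccl3, the cathepsins Ctsc and Ctss, Igfbp2 and Rpl39l.

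**Figure D2:**
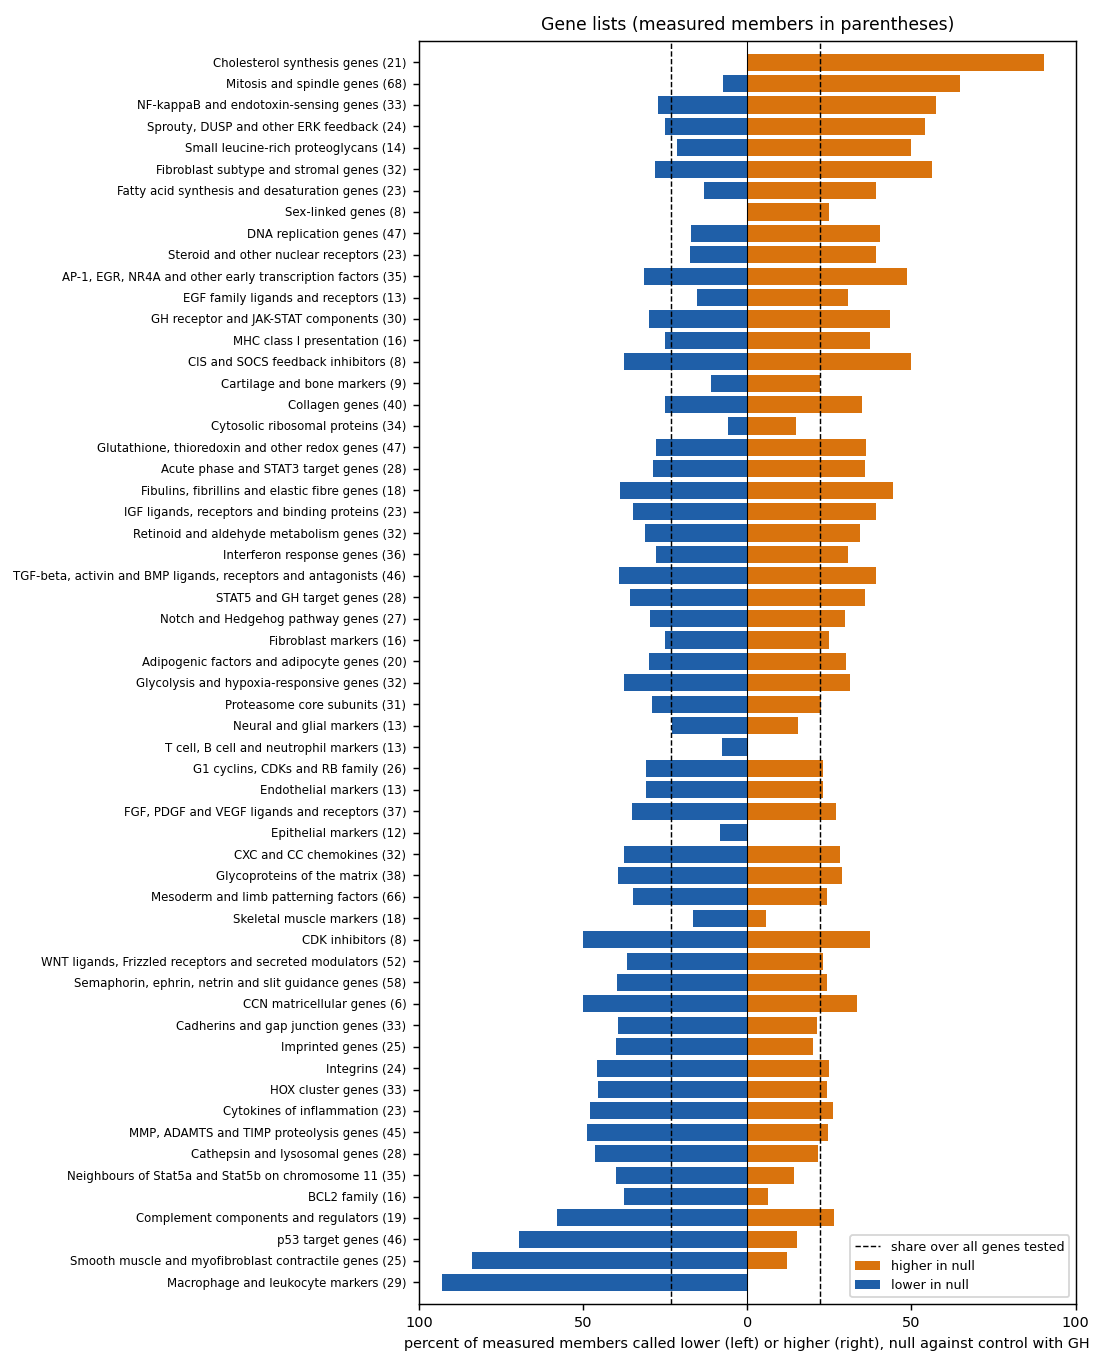
For each of 58 gene lists, the percent of measured members called lower (bars to the left) or higher (bars to the right) in null against control cells with GH, with the share over all genes tested, 23.1% and 22.2%, as dashed lines. Macrophage markers stand at 27 of 29 lower and none higher at the bottom, and cholesterol synthesis at 19 of 21 higher and none lower at the top.

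Cells of both genotypes carried the markers of fibroblasts. Col1a1 and Col1a2, the chains of type I collagen, read 14.46 to 14.51 and 14.83 to 14.89 over all 4 arrays and were not called, nor were Vim, Thy1 and Pdgfrb. Of 16 fibroblast markers 4 were higher, 4 lower and 8 not called (median 0.02), and the summed level of the list lay at 17.68 and 17.69 on the log2 scale in control and 17.82 and 17.80 in null cells. Pdgfra, a PDGF receptor, read 9.88 and 9.82 in control against 12.98 and 12.79 in null cells, 8.19-fold higher, and Dcn, the proteoglycan decorin, was 12.5-fold higher (3.64 ± 0.08). Twist2, a mesenchymal transcription factor named after its values were seen, was lower (-1.69). Among 32 fibroblast subtype and stromal genes 18 were higher and 9 lower (median 0.57), with Islr highest and Thbd, the thrombomodulin gene, 23.8-fold lower. Xist, the transcript of the inactive X chromosome, read 13.02 to 13.17 on the 4 arrays and the Y-linked genes Eif2s3y, Kdm5d and Uty were dim on all 4, the pattern of female cells in both genotypes.

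Markers of macrophages and leukocytes were lower in null cells. Of 29 measured, 27 were lower and 0 higher by limma, also at an unadjusted p below 0.05 (27 and 0). The median was -2.77, and 12 of the 27 were dim in null cells. The summed level of the list was 15.48 and 15.40 on the log2 scale in control and 12.38 and 12.39 in null cells. Ptprc read 9.63 and 9.48 in control and 4.47 and 4.36 in null cells, and the signalling adaptor Tyrobp (11.30 and 11.02) and the macrophage antigen gene Adgre1 (9.26 and 9.28) were likewise dim in null cells. Lyz2 was still at 8.53 and 8.55 in null cells and the receptor of macrophage colony-stimulating factor, Csf1r, at 9.09 and 9.05, against 13.89 and 13.78, and 11.45 and 11.33, in control cells. In such bulk RNA, fewer cells of a type and less RNA per cell cannot be told apart. Markers of T cells, B cells and neutrophils (1 lower of 13, median 0.04) and of epithelium (1 lower of 12, median -0.06) were mostly not called. The other marker lists held calls both ways, against 22.2% higher and 23.1% lower over all genes. Endothelium had 3 higher, 4 lower and 6 not called of 13, and skeletal muscle 1, 3 and 14 of 18. Neural and glial markers had 2 higher, 3 lower and 8 not called of 13, and cartilage and bone 2, 1 and 6 of 9.

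**Figure D3:**
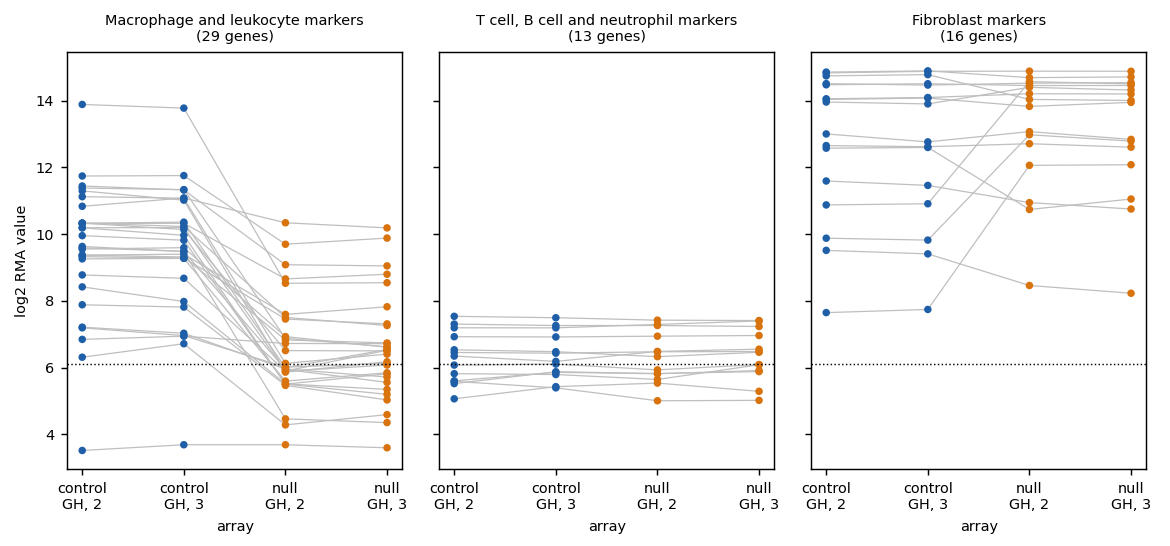
Log2 RMA values (y axis) on the 4 arrays with GH (x axis), 1 line per gene, for 29 macrophage and leukocyte markers, 13 markers of T cells, B cells and neutrophils, and 16 fibroblast markers, with the first quartile, 6.097, dotted. The macrophage lines drop from control to null arrays for 27 genes, while most lines of the other panels run level.

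Immune gene lists moved in the presence of that marker difference, and its part in them was not tested. Of 19 complement genes 11 were lower and 5 higher (median -0.43). C1qa, C1qb and C1qc, which macrophages make, read 11.31 to 12.12 in control cells and were dim in null cells, while C1s1 rose. Of 28 cathepsin and lysosomal genes 13 were lower and 6 higher (median -0.20), and Ctss read 11.29 and 11.28 against 4.86 and 5.00. The 23 inflammatory cytokine genes held 11 lower and 6 higher (median -0.18), and the 32 CXC and CC chemokines 12 lower and 9 higher (median -0.08). NF-kappaB and endotoxin-sensing genes leaned the other way, with 19 of 33 higher and 9 lower (median 0.39). In that list Relb, an NF-kappaB subunit, was higher (1.38 ± 0.09) and so was Lbp, which presents endotoxin (1.97 ± 0.10), while the endotoxin co-receptor Cd14, also a macrophage marker, was lower (-1.96 ± 0.10). Acute phase and STAT3 target genes (10 higher, 8 lower of 28) and interferon response genes (11 higher, 10 lower of 36) split. Among the former, Cebpd, a transcription factor of the acute phase, was higher (2.09 ± 0.10) in 1 of 2 probe sets, Il6ra, an interleukin 6 receptor chain, was higher (2.23 ± 0.11) and Ptx3, a long pentraxin, was lower (-2.78 ± 0.13). Among the latter Ifit1 was higher by 2.18 ± 0.10. The class I antigen presentation genes H2-K1 (-2.37 ± 0.10) and H2-D1 (-2.28 ± 0.10), near-identical members of 1 family that may share probes, were lower, while the immunoproteasome subunit gene Psmb10 was higher (1.91 ± 0.10). That list had 6 higher and 4 lower of 16.

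Contractile genes of smooth muscle and myofibroblasts were lower in null cells. Of 25 measured, 21 were lower, 3 higher and 1 not called (median -0.71). Cnn1, calponin, read 13.31 and 13.42 in control against 11.08 and 11.36 in null cells (-2.15 ± 0.11), and Mylk, myosin light chain kinase, 11.91 and 11.76 against 9.63 and 9.74 (-2.14 ± 0.10). Acta2, the smooth muscle actin that defines myofibroblasts, named after its values were seen, differed less, from 14.82 and 14.84 to 14.28 and 14.24. The integrins had 11 lower and 6 higher of 24, with Itga1 (-2.51 ± 0.14), Itga4 (-2.20 ± 0.13) and Itga8 (-1.72 ± 0.11) lower. Of 6 CCN matricellular genes, Ccn5 (-2.91 ± 0.10) and Ccn2 (-1.33 ± 0.09) were among 3 lower, and Ccn1 among 2 higher (2.18 ± 0.10). TGF-beta, activin and BMP genes were evenly split, 18 higher and 18 lower of 46. Fstl3, an activin antagonist (-2.63 ± 0.09), and Id4, a BMP-induced inhibitor of bHLH factors (-2.95 ± 0.12), were lower, and Tgfbr3, the TGF-beta co-receptor betaglycan, was higher (2.03 ± 0.10).

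Each list of matrix genes held genes of both directions, and the small leucine-rich proteoglycans and the proteolysis genes leaned to opposite sides. Of 40 collagen genes 14 were higher, 10 lower and 16 not called (median 0.02). Col5a3 was higher (2.66 ± 0.10) and Col7a1, the anchoring fibril collagen, lower (-2.14 ± 0.10), and Col4a5, of basement membranes, read 10.54 and 10.51 in control cells and was dim in null cells. Of 14 small leucine-rich proteoglycans 7 were higher and 3 lower (median 0.50), led by Lum, Dcn and osteomodulin, Omd (3.29 ± 0.11). Of 18 fibulin, fibrillin and elastic fibre genes 8 were higher and 7 lower, Fbln1 (2.94 ± 0.10) and Fbln7 on one side and Efemp1 on the other. Matrix glycoproteins had 11 higher and 15 lower of 38, with the matrilin gene Matn2 16.2-fold higher (4.02 ± 0.10). Proteolysis genes of the MMP, ADAMTS and TIMP families had 11 higher and 22 lower of 45 (median -0.25): stromelysin Mmp3 was higher (2.20 ± 0.09), and the sheddase Adam8 was lower (-1.96 ± 0.09). Mmp12, the macrophage elastase, read 9.47 and 9.22 in control cells and was dim in null cells.

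Cholesterol synthesis genes were higher in null cells almost throughout. Of 21 measured, 19 were higher and 0 lower by limma (20 and 0 at an unadjusted p below 0.05), with a median of 1.05. Without GH the counts were 18 higher and 1 lower, against 24.8% and 22.7% of all genes. Idi1, isopentenyl diphosphate isomerase, read 9.92 and 9.79 in control against 11.86 and 11.65 in null cells (1.90 ± 0.11). Pmvk, phosphomevalonate kinase, was higher by 1.60 ± 0.09 and Fdft1, squalene synthase, by 1.48 ± 0.09, the latter in 2 of its 4 probe sets. Their regulators Insig1 (1.89) and Srebf2 (1.40), named after their values were seen, were among the 19. The 23 fatty acid synthesis and desaturation genes were less one-sided, with 9 higher and 3 lower (median 0.11), Elovl6, a fatty acid elongase, being 4.50-fold higher and Fads3 3.09-fold lower. Redox genes had 17 higher and 13 lower of 47: the glutathione peroxidase genes Gpx3 (-4.32 ± 0.10) and Gpx7, from 10.37 and 10.34 to dim, were lower and Mgst2 higher. Retinoid and aldehyde genes split 11 to 10 of 32, with Aldh1a1, a retinal dehydrogenase, higher (2.10 ± 0.09) and Crabp2, a retinoic acid carrier, lower (-1.79 ± 0.12). Glycolysis and hypoxia genes split 10 to 12 of 32, with Ndrg1 higher (1.83 ± 0.09) and hexokinase Hk2 lower (-1.19 ± 0.09). Adipocyte genes split 6 to 6 of 20, with lipoprotein lipase, Lpl (2.17 ± 0.09), and its inhibitor Angptl4 (2.77 ± 0.09) higher and Apoe dim in null cells.

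Signalling and patterning genes likewise went both ways. Early transcription factors had 17 higher and 11 lower of 35 (median 0.25), with Egr1 5.34-fold higher (2.42 ± 0.10) and Btg2, also a p53 target, 4.34-fold lower. Feedback genes of the ERK pathway had 13 higher and 6 lower of 24 (median 0.54), among them Spry2, a Sprouty protein (2.25 ± 0.14), and Errfi1, an inhibitor of the EGF receptor (1.73 ± 0.09). Egfr itself was 2.67-fold higher in 4 of 7 probe sets, within an EGF family of 4 higher and 2 lower of 13. FGF, PDGF and VEGF genes had 10 higher and 13 lower of 37, and WNT pathway genes 12 and 19 of 52, including Wnt4 lower (-2.99 ± 0.10) and the antagonist Dkk2 higher (2.26 ± 0.09). Notch and Hedgehog genes split evenly, 8 and 8 of 27 (median -0.08). The members named for their lowest p were higher: the Hedgehog co-receptors Cdon (2.33 ± 0.10) and Gas1 (1.77 ± 0.09) and the effector Gli1 (1.86 ± 0.11). The 8 lower members are not named here. Axon guidance genes had 14 higher and 23 lower of 58, with Sema5a 12.8-fold higher and Sema4d 5.49-fold lower, and cadherin and gap junction genes 7 and 13 of 33, with Cdh13 higher (1.91 ± 0.10) and Cdh10 lower (-1.78 ± 0.10).

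HOX cluster genes, which record position along the body axis, had 8 higher and 15 lower of 33 (median -0.20). Hoxa7 was higher (1.72 ± 0.10), while Hoxc10 and Hoxa10 were dim in null cells, and 7 of the 15 lower HOX genes were. Mesoderm and limb patterning factors had 16 higher and 23 lower of 66, with the Iroquois gene Irx3 13.1-fold lower (-3.71 ± 0.12) and Irx2 dim in null cells. Of 25 imprinted genes 10 were lower and 5 higher: beside Grb10, necdin, Ndn, was lower in 5 of 8 probe sets, and neuronatin, Nnat, was dim in null cells. The Ndn probe set that stands for the gene fell from 11.50 and 11.41 to 6.94 and 7.20, while the other 4 read 11.90 to 12.54 in control cells and 3.54 to 4.62, dim, in null cells. Genes next to Stat5a and Stat5b on chromosome 11 had 14 lower and 5 higher of 35 (median -0.18). Nkiras2 was lower by 1.22 ± 0.09, and Aoc3 was higher by 2.30 ± 0.10. By contrast, 27 of 34 cytosolic ribosomal protein genes were not called (5 higher, 2 lower, median 0.10). Proteasome genes had 7 higher and 9 lower of 31, Psmd13 being 2.42-fold lower.

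Genes called in both GH states mostly had the same direction: 3350 genes were called higher in both states and 3374 lower in both, while 64 were higher with GH and lower without, and 31 the reverse. A further 1428 genes were called with GH only and 1821 without GH only. The interaction, which tests the genotype difference with GH against that without it, was called for 938 genes (5.16%), 515 positive (2.83%) and 423 negative (2.33%). The genotype difference was larger in size with GH for 426 of these and smaller for 512. The split depended on scaling: positive calls were 54.9% as deposited, 69.1% with arrays centred on their median and 60.1% after quantile normalization. The count fell to 586 without control array 2 with GH, 561 without control array 3 with GH, 437 and 459 without null arrays 2 and 3 with GH, and 585 without null array 2 without GH.

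Among the 8 most negative interactions of genes dim in none of the 4 groups were genes of inflammation. Ccl4, a chemokine, read 12.05 and 11.96 in control and 7.60 and 7.70 in null cells with GH, and 8.20 and 8.21 against 7.69 and 7.86 without it, so it was 20.4-fold lower with GH (interaction -3.92 ± 0.13, adjusted p = 1.6e-08). Il1b, interleukin 1 beta, read 9.57 and 9.59 in control against 6.099 and 6.136 in null cells with GH, and 6.17 to 6.26 on all 4 arrays without it (interaction -3.47 ± 0.12). Tnf, tumour necrosis factor, was 11.9-fold lower with GH (-3.57 ± 0.13) and not called without (interaction -3.29 ± 0.18). In each case both control arrays with GH stood above all arrays of the other 3 groups. The others were the chemokine-binding receptor Ccrl2 (-2.88 ± 0.14), the TNF family ligand Tnfsf9 (-2.87 ± 0.15), Socs3, the niacin receptor Hcar2 (-1.93 ± 0.15) and the phosphatase Dusp2 (-1.90 ± 0.14). Ccl3 and Acod1, which makes itaconate in macrophages, were dim in some groups and so not ranked, although also called negative: with GH Ccl3 read 11.94 and 11.91 in control and 5.42 and 5.33 in null cells, and Acod1 11.22 and 11.21 against 7.22 and 7.21. Without GH Acod1 was dim in both genotypes. In either GH state 27 of the 29 macrophage markers described above were lower in null cells (medians -2.77 with GH and -2.56 without). The median interaction of that list was -0.05, with 7 members called negative, against 2.33% of all genes.

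The 8 most positive interactions of genes dim in none of the 4 groups were of genes that stood higher in null cells with GH. Ccl8, a chemokine, read 8.65 and 8.59 in control against 12.25 and 12.38 in null cells with GH, 12.9-fold higher, and 8.30 to 8.62 on the 4 arrays without it (interaction 3.51 ± 0.14, adjusted p = 3.52e-08). Here both null arrays with GH stood above all arrays of the other 3 groups. Saa3, serum amyloid A3, an acute phase protein, read 11.11 and 10.88 in control and 13.58 and 13.63 in null cells with GH, and 7.51 to 8.12 in both without, so both genotypes were higher with GH and null cells the more so (interaction 2.50 ± 0.22). Ereg, the EGF family ligand epiregulin, was 1.02 ± 0.13 higher in null cells with GH, against a difference of -1.54 without (interaction 2.56 ± 0.19). The rest were the nocturnin gene Noct (2.51 ± 0.13), Gch1, of tetrahydrobiopterin synthesis (2.39 ± 0.14), the guanylate-binding protein gene Gbp2 (2.25 ± 0.15), the hyaluronan synthase gene Has2 (2.13 ± 0.12) and the transcription factor gene Klf5 (1.83 ± 0.14).

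Genes whose order of genotypes turned over with GH, chosen by the smaller of their differences, were Tnfsf9 and Socs3, lower in null cells with GH and higher without, and Ereg, Noct, Gch1, Trim47, Ccl2 and Hivep1, higher with GH and lower without. Ccl2, a monocyte chemokine, read 13.68 and 13.59 in control and 14.45 and 14.39 in null cells with GH, and 10.96 and 11.35 against 10.28 and 10.32 without it. Over all genes the interaction was called positive for 2.83% and negative for 2.33%. By list, it was called positive for 11 and negative for 4 of the 33 NF-kappaB and endotoxin-sensing genes. The counts were 9 and 1 of the 28 acute phase and STAT3 target genes, and 8 and 4 of the 35 early transcription factors. They were 6 and 7 of the 23 inflammatory cytokines, and 7 and 7 of the 32 chemokines. Of 29 macrophage markers 7 were called negative and none positive, and of 16 fibroblast markers 1 negative and none positive. Of genes with a promoter window, 8.44% of 391 with a positive interaction and 7.72% of 324 with a negative one held a match to TTCNNNGAA. Over all 14368 tested genes with a window the share was 8.57%. A gene with several windows counted if any of them held a match.

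**Figure D4:**
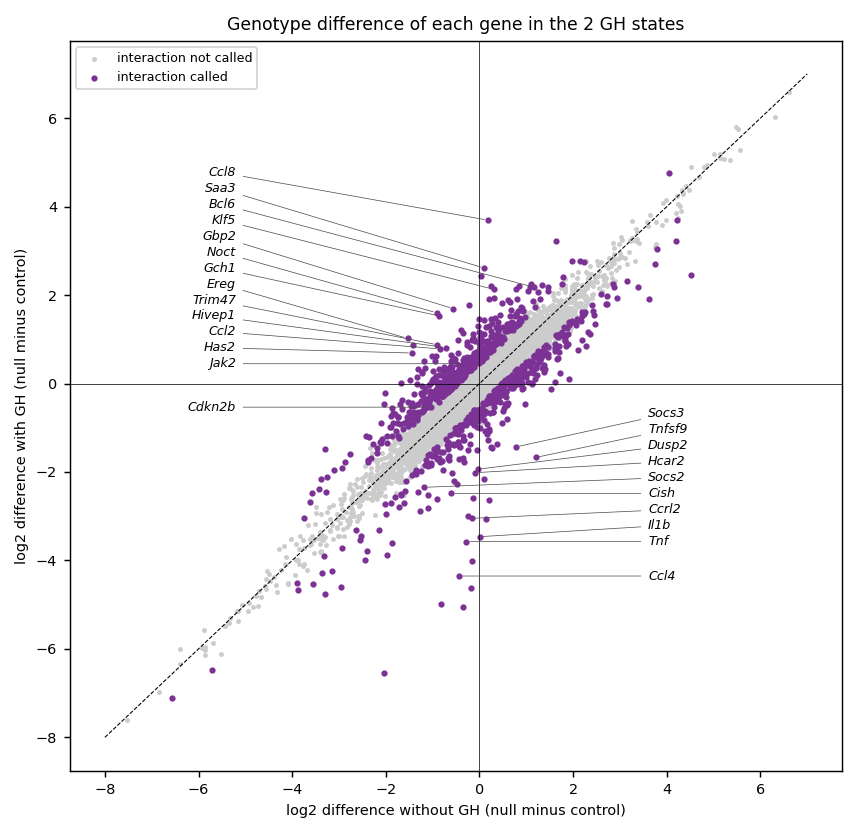
Log2 difference of each gene, null minus control, without GH (x axis) and with GH (y axis), with genes called in the interaction in purple and equal differences on the dashed line. Ccl4, Il1b and Tnf lie far below the line near 0 on the x axis, Ccl8 and Saa3 above it, and most other genes along it.

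Genotype differences also varied by chromosome. Over 13102 genes with a chromosome in the RefSeq table (GRCm38.p6) that were not dim, 28.1% were higher and 26.8% lower. On chromosome 4, 9.4% were higher and 51% lower, on chromosome 1, 12% and 49.3%, and on chromosome 7, 8.31% and 46.9%. On chromosome 17, in contrast, 45.5% were higher and 11.9% lower, and on the X chromosome 47.9% and 13.4%. The medians relative to all these genes were -0.26, -0.23 and -0.21 on chromosomes 4, 1 and 7, and 0.22 and 0.25 on 17 and X. Medians of single null and control array pairs with GH kept these signs, from -0.279 to -0.261 on chromosome 4 and 0.191 to 0.239 on chromosome 17. Without GH the medians were -0.28, -0.27, -0.24, 0.19 and 0.23. The sign of the shift, though not its size, held along some chromosomes. The running median over 51 neighbouring genes, taken in overlapping windows, was below 0 in 100% of windows on chromosomes 1, 4 and 7. It was above 0 in 100% on 15, 17 and X. In places it came close to 0, running from -0.52 to -0.008 on chromosome 4 and from 0.001 to 0.421 on chromosome 17. On chromosome 8 it changed sign, running from -0.274 to 0.73. On chromosome 11, which holds Stat5a and Stat5b, it was below 0 in 77.4% of windows, with a median of -0.04. This is a description, with no test of a chromosome against the rest, and its part in the lists above was not tested.

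**Figure D5:**
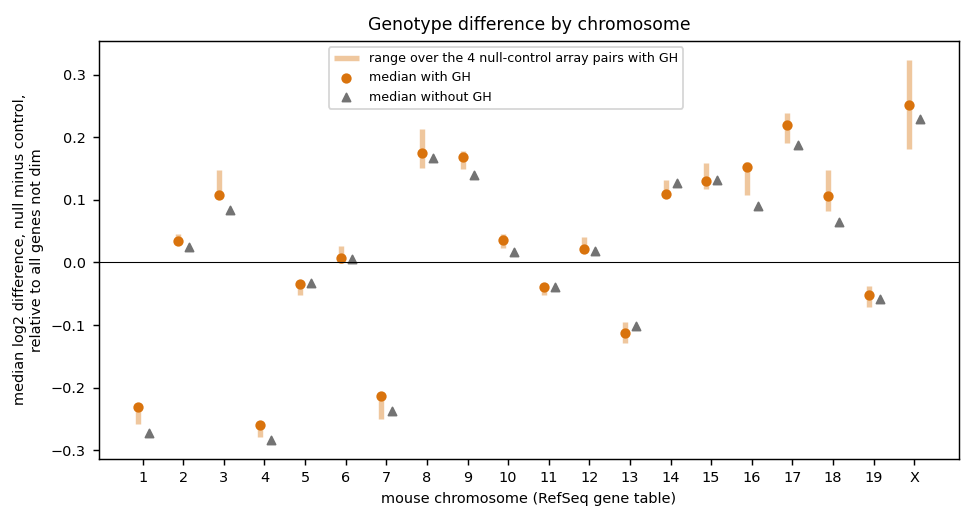
Median log2 difference of the genes on each mouse chromosome (x axis), null minus control, relative to the median of all genes not dim (y axis), with GH (circles, with bars for the range of medians over the 4 pairs of a null and a control array) and without GH (triangles). Chromosomes 1, 4 and 7 lie lowest and 17 and X highest in both states.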

How the data were processed

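RNA of 8 samples was measured on Affymetrix mouse arrays, 2 per combination of genotype and GH. The deposited values are log2 intensities that the authors made with RMA, and Partek 6.10.0511 is named too, per the submitters' processing notes. RMA corrects background, equalises array distributions and summarises probes, so differences are relative to the other genes, and those of dim genes are compressed. The sources used here do not give its settings. The number of arrays limits the precision.

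Of 45101 probe sets, 64 controls were left out. Of 45037, 34945 had 1 gene in the platform annotation, 932 several and 9160 none, and the last 2 kinds stayed unnamed. Symbols were updated through Entrez identifiers for 34741. For 9010 genes with several probe sets the brightest on average over the 8 arrays stood for the gene, leaving 18193 genes. Other probe sets of a gene can differ in size. All 8 arrays were fitted in limma 3.58.1 (R 4.3.3) with 1 mean per group (4 residual and 7.82 prior degrees of freedom), and p-values were adjusted over all genes of a contrast by Benjamini-Hochberg, two-sided. The fit was tested on simulated data.

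The arrays and the 58 gene lists (1641 of 1781 entries matched) were chosen with earlier results of these data known. Named genes are a fixed set of GH, SOCS and CDK inhibitor genes; the 12 largest differences each way among genes dim in neither genotype; the 10 brightest each way with the other genotype dim; up to 3 members per list with the lowest p; the 8 largest interactions each way among genes dim in no group and 8 opposite signs; and reference genes. Exceptions are marked. Alternatives concerned the arrays fitted, the block, probe set choice, a filter on dim genes, the variance model, a 1.5-fold minimum, scaling, the threshold and leaving out each array.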

Additional observations from a re-analysis of the deposited data

Results flagged for a closer look

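The genotype difference differed between the GH states for 938 genes by limma's interaction test (adjusted p below 0.05). The values below are interactions, the log2 difference of null minus control with GH less the same difference without GH, from 2 arrays per group, and are given with a size only for genes dim in no group. In the GH pathway they were -2.21 for Socs3, -1.88 for Cish, -1.17 for Socs2, 1.01 for Bcl6, 0.75 for Jak2, which was lower in null cells without GH and higher with it, and 0.49 for Cdkn2b. The last was lost without any single array, and that of Jak2 was lost without control array 3 or null array 2 with GH, or null array 2 without GH.

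Genes that stood lower in null cells with GH gave -3.92 for Ccl4, -3.47 for Il1b, -3.29 for Tnf, -2.88 for Ccrl2, -2.87 for Tnfsf9, -1.93 for Hcar2 and -1.90 for Dusp2. Genes that stood higher gave 3.51 for Ccl8, 2.56 for Ereg, 2.51 for Noct, 2.50 for Saa3, 2.39 for Gch1, 2.25 for Gbp2, 2.13 for Has2, 1.83 for Klf5, 1.78 for Trim47, 1.64 for Ccl2 and 1.53 for Hivep1. The macrophage markers, lower in null cells, had a median difference of -2.77 with GH and -2.56 without, and a median interaction of -0.05. Of the 29, 7 were called negative in the interaction and 0 positive, against 2.33% negative and 2.83% positive over all genes. Ccl3 and Acod1, dim in some groups, were called negative too. No outlier check was made, because each group has 2 arrays.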

How the results depend on the processing

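No called difference or interaction of a named gene turned direction under the alternatives run. Changes of sign in values that were not called, such as that of Actb, were not counted. The balance of calls did turn: with GH, 4042 higher and 4205 lower became 4440 and 3843 with arrays centred on their median, 4441 and 4045 after quantile normalization and 8841 and 7956 per probe set. Without GH, 4510 and 4130 became 4186 and 4361 when centred and 8577 and 8806 per probe set. Tested per probe set, 16797 were called with GH, 17383 without and 2469 in the interaction (73.8% positive). Against a minimum of 1.5-fold the counts were 2423, 2605 and 90. At an adjusted p below 0.01 the interaction count was 389. Leaving out 1 array gave 6953 to 8477 genes with GH, 7633 to 8405 without and 437 to 872 for the interaction. Array numbers did not pair the samples: deviations of equal numbers correlated at -0.279 to 0.129 between groups. With the number as a replicate block 7957, 8315 and 754 genes were called. Over the named genes' alternatives, the side of the threshold stayed for 3226 values with GH, was lost for 60 and gained for 6, and for the interaction it stayed for 549, was lost for 44 and gained for 7. Of the recomputed counts of list members called, 695 stayed within 1.5 times. Of the other 59, 43 arose with the 1.5-fold minimum. Of single genes, S100a8, Rps28, Matn3 and Alpl lost their call with GH without 1 or more arrays, as did Kdm6a. Interactions of Socs5, Cdkn1b and Cdkn2d were lost under several single-array omissions, and those of Socs2 (adjusted p = 0.104) and Bcl6 (adjusted p = 0.766) against the 1.5-fold minimum. Dim genes have no measured size here, since the deposited values carry no detection call.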
